A study of Homo sapiens with 9 samples.

Results

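Divergent promoters are short stretches of DNA from which a gene on the minus strand and a gene on the plus strand are both transcribed, each away from the other. They were taken here as pairs of protein-coding genes of Gencode v44 on opposite strands, with the start of the plus-strand gene 1 to 1000 bp beyond the start of the minus-strand gene. This rule found 887 pairs, made of 1710 of the 20033 protein-coding genes (8.54%). The pairs fell into 824 loci when pairs that share a gene were counted once, and 80 pairs held a read-through gene that spans its neighbour. The rule used the annotation only, and no measured value.

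The measurements were TIF-Seq2 counts from K562, an established human erythroleukemia line from chronic myeloid leukaemia that carries the BCR-ABL1 fusion kinase. The cells had been exposed for 24 h to 1 μM imatinib, an inhibitor of that kinase, or to the vehicle DMSO, and 2 biological replicates of each condition were sequenced. In TIF-Seq2 a read pair gives the 5′ end, the transcription start site (TSS), and the 3′ end, the poly(A) site (PAS), of one capped and polyadenylated molecule. A side of a pair was counted as the read pairs that start within 500 bp of the annotated gene start on its strand. It was called detected with at least 10 read pairs over the 4 libraries.

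The libraries held 2263121 to 5135829 read pairs, and 10.6% to 11.5% of them started at members of divergent pairs. Within 500 bp of their annotated starts, 8 of 9 erythroid markers of K562 were detected, and HBZ was not. Starts elsewhere were not counted for these markers. Their summed level was 1501 and 1517 CPM (read pairs scaled to the TMM-adjusted size of each library at protein-coding starts) in DMSO and 3560 and 3261 CPM after imatinib. All 6 markers of other cell types had fewer than 10 read pairs, with summed levels of 0 to 2.53 CPM. Imatinib replicate 1 had the largest share of 3′ ends in front of an A-rich stretch of the genome, 9.80% against 7.82% to 8.27% in the other libraries. In bulk RNA, fewer cells of one type and less RNA per cell cannot be told apart.

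Promoters of mammalian genes are often open in both directions. In divergent gene pairs the DNA between the starts, usually a CpG island without a TATA box, holds binding sites that can serve either gene. Such pairs are known to be common among genes for DNA repair, mitochondria and the cell cycle. In the replication-dependent histone clusters, many H2A and H2B genes face each other across one shared promoter.

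The bases between the annotated starts are shown for 9 pairs described below. They are 3 pairs with high levels on both sides (PSMA2/MRPL32, POLR3K/SNRNP25 and RNF113A/NDUFA1), 1 known bidirectional promoter (SARS2/MRPS12), 3 pairs with both sides changed the same way by imatinib (SERINC1/PKIB, H2AC17/H2BC17 and ALG3/EEF1AKMT4) and 2 pairs with sides changed in opposite directions (PPP1R13L/POLR1G and WDR4/NDUFV3). Each is the plus strand of hg38 from 5′ to 3′ and lies outside both annotated genes. The minus-strand gene, named first, starts just left of the first base and is read leftwards, and the plus-strand gene starts just right of the last base. Capitals mark matches on either strand to 8 motifs. The TATA box was searched as TATAAA and the CCAAT box as its 5 letters. For the ETS/GABP family the letters were CCGGAAG, and for the zinc finger factor SP1 they were GGGCGG. The motif of NRF1 was taken as GCATGCGC and that of the factor YY1 as AAGATGGCG. The cAMP response element (CRE) was taken as TGACGTCA and the E-box as CACGTG. Matches of different motifs can overlap.
PSMA2/MRPL32 (chr7:42932186-42932375): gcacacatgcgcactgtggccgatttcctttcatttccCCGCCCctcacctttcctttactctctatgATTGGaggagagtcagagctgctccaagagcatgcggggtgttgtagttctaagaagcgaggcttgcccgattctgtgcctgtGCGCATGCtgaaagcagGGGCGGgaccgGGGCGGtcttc
POLR3K/SNRNP25 (chr16:53609-53827): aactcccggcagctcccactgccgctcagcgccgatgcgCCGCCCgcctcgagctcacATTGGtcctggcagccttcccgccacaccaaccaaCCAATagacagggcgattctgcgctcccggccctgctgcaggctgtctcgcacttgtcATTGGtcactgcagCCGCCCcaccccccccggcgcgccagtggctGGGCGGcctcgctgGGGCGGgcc
RNF113A/NDUFA1 (chrX:119871734-119871831): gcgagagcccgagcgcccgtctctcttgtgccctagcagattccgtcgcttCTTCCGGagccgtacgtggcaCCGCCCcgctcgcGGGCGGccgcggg
SARS2/MRPS12 (chr19:38930764-38930943): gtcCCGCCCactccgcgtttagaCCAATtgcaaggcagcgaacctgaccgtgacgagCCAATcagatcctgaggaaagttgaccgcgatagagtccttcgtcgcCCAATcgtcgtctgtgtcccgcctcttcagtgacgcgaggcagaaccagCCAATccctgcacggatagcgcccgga
SERINC1/PKIB (chr6:122471808-122471916): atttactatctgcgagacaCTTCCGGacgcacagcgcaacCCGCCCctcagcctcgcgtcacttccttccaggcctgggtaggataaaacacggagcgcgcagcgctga
H2AC17/H2BC17 (chr6:27893186-27893424): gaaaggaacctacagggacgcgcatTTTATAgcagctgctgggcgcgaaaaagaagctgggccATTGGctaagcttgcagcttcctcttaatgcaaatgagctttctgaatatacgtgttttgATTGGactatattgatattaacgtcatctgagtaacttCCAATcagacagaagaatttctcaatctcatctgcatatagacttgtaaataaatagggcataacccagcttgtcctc
ALG3/EEF1AKMT4 (chr3:184249549-184249671): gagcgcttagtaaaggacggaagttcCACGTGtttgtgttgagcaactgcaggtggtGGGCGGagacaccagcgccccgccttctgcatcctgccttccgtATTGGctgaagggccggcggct
PPP1R13L/POLR1G (chr19:45406350-45406643): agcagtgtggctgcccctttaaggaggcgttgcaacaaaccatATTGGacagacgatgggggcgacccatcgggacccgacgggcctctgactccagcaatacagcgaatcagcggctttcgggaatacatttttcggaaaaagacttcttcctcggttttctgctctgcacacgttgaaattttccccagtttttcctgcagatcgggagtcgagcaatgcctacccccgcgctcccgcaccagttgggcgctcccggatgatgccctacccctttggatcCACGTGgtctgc
WDR4/NDUFV3 (chr21:42879569-42879643): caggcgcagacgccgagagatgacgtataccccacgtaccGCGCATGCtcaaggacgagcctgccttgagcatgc

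The 9 intervals differed in what they hold. The H2AC17/H2BC17 interval was the only one of the 9 with a TATA box match, held 3 CCAAT boxes and had 6 CpG dinucleotides in 239 bp with a GC content of 41.4%. The POLR3K/SNRNP25 interval was GC-rich (71.2%), with 20 CpG in 219 bp, 4 SP1 matches and 3 CCAAT boxes. The SARS2/MRPS12 interval held 4 CCAAT boxes, all on the plus strand, and 1 SP1 match in 180 bp. An ETS/GABP match stood between SERINC1 and PKIB and between RNF113A and NDUFA1, and an NRF1 match between WDR4 and NDUFV3 and between PSMA2 and MRPL32. A match is only a match of letters.

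The same motifs were counted in the 300 bp window from 250 bp before to 50 bp after every annotated start. Among detected genes the ETS/GABP match was present in 30.5% of the 1284 members of divergent pairs and in 21.4% of all 8373 protein-coding genes. The NRF1 match was present in 9.97% of the members against 6.62%, the CCAAT box in 43.0% against 38.9%, and the SP1 match in 72.0% against 69.1%. The TATA box was present in 4.98% against 6.26%, the YY1 match in 4.83% against 3.79%, the CRE in 4.60% against 3.55% and the E-box in 10.4% against 10.6%. The median observed-to-expected CpG ratio was 0.891 in the members and 0.842 in all detected genes. Windows of 2 genes in a pair overlap, so that the members are not independent, and no test was run on these shares.

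Most divergent promoters were used in both directions in K562. Both sides were detected in 555 of the 887 pairs (62.6%), 1 side in 227 and neither in 105. Among 577 neighbouring head-to-head pairs with starts 1 to 10 kb apart, both sides were detected in 137 (23.7%), and among 4611 neighbouring same-strand genes with starts 1 to 50 kb apart in 989 (21.4%). Over single genes, 75.1% of the members were detected against 41.8% of all protein-coding genes. The median level of the detected members was 31.5 CPM against 20.2 CPM of all detected genes.

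Detection on one side went with detection on the other. Where the minus-strand gene was detected, the plus-strand gene was detected in 83.1% of the divergent pairs, and where it was not, in 52.1%. The same shares were 53.1% and 37.0% in the head-to-head pairs 1 to 10 kb apart. In same-strand neighbours they were 53.9% and 31.6%. These shares describe the annotated starts, and a gene can also be transcribed from elsewhere. Of the 227 pairs with 1 detected side, the other gene had at least 10 read pairs that start and end within the gene (allowing 500 bp before its start and 1 kb at its ends) in 124 pairs, and none in 27. These last counts were added after the levels had been seen.

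The levels of the 2 sides were nearly unrelated. Over the 555 pairs with both sides detected, the stronger side exceeded the weaker by a median of 4.76-fold (2.25 on the log2 scale), 114 pairs lay within 2-fold and 220 were more than 8-fold apart. The median difference was 2.35 to 2.47 (log2) in the single libraries, where sides with a count of 0 could not enter. It was 2.58 in head-to-head pairs 1 to 10 kb apart and 2.82 in same-strand neighbours. Spearman's correlation between the levels of the 2 sides was 0.0700 over 555 pairs, and 0.0575 to 0.0825 in the single libraries. It was 0.0360 over the 137 head-to-head pairs and -0.0090 over the 989 same-strand pairs. The correlations are descriptions, since both sides share the libraries.

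The stronger side was a stable property of a pair. The same side was the stronger one in all 4 libraries in 457 of the 555 pairs, and it was the plus-strand gene over the library mean in 272. Each read pair is one molecule, so the counts were not divided by length. Still, the ratio of the sides fell with the ratio of their mRNA lengths in the annotation (Spearman's correlation -0.391 over 555 pairs), so the side with the shorter mRNA tended to have the higher count. The part of cDNA synthesis and circularization in this was not tested.

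**Figure D1:**
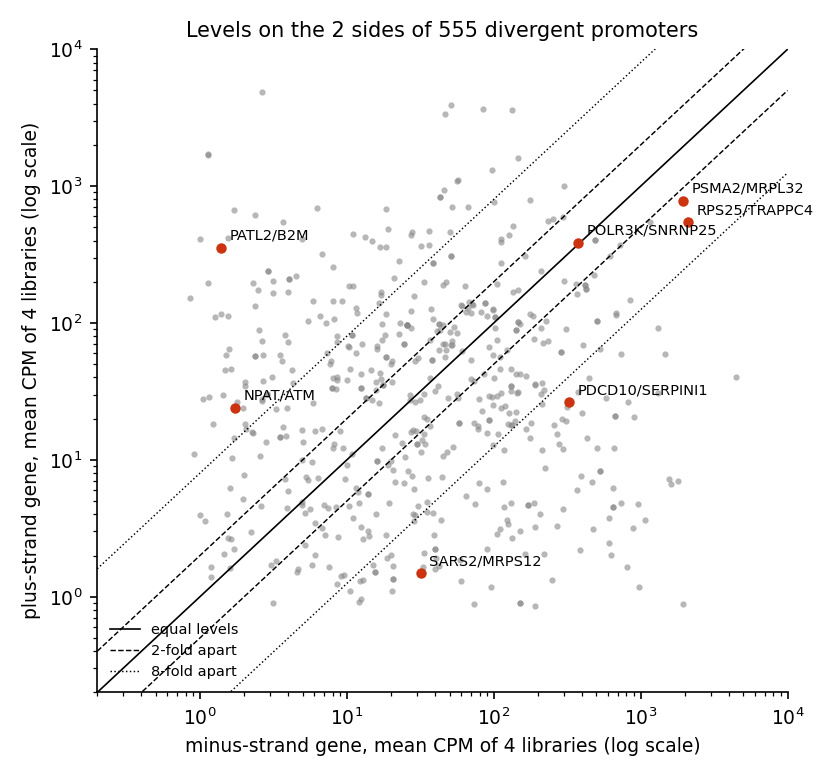
Mean CPM of the minus-strand gene (x axis) and of the plus-strand gene (y axis) over 4 libraries, on log scales, for the 555 divergent pairs with both sides detected, with 7 pairs named. The points form a broad cloud around the line of equal levels, with 114 pairs within 2-fold and 220 beyond 8-fold.

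The 10 pairs with the highest level on the weaker side were genes that most cells use. Library values are given from here on as CPM in the order DMSO replicate 1, DMSO replicate 2, imatinib replicate 1, imatinib replicate 2. PSMA2, a subunit of the proteasome core, stood at 2255, 1708, 1782 and 2045 CPM. Its partner MRPL32, a protein of the large mitochondrial ribosomal subunit, stood at 1149, 712, 580 and 676 CPM, below PSMA2 in every library. PSMA2 shares its start with an annotated read-through gene without a symbol, whose reads cannot be told apart from it. RPS25, of the small cytosolic ribosomal subunit, averaged 2106 CPM and its partner TRAPPC4, of a vesicle tethering complex, 543 CPM. UFD1, a cofactor of the p97 ATPase, averaged 1149 CPM against 544 CPM for CDC45, part of the replicative helicase. The remaining pairs of the 10 were PHB2/EMG1, POLR3K/SNRNP25, TRMT112/PRDX5, NUDT5/CDC123, PDAP1/BUD31, WDR46/PFDN6 and RNF113A/NDUFA1, with weaker sides of 254 to 403 CPM.

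POLR3K and SNRNP25 were the most balanced of the 10 pairs. POLR3K, a subunit of RNA polymerase III, stood at 625, 388, 212 and 276 CPM, and SNRNP25, of the minor spliceosome, at 456, 395, 331 and 363 CPM. The ranges of the 2 genes overlapped and their means differed by 1.03-fold. RNF113A, a spliceosome-associated protein, stood at 203, 325, 356 and 131 CPM, and NDUFA1, of respiratory complex I, at 564, 440, 738 and 570 CPM. Here NDUFA1 was higher in every library, by 2.28-fold in the mean.

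At the other end, a few very strong promoters had almost no molecules on the facing side. EIF3K, a subunit of the translation initiation factor eIF3, had 23033 read pairs, while MAP4K1, a kinase of blood cells, had 3 at its start, a ratio of 7678 (exact 95% interval 2627 to 37233, counting error only). RPS16, of the small ribosomal subunit, had 13454 read pairs and SUPT5H, a transcription elongation factor, had 1. BLVRB, the biliverdin reductase abundant in erythroid cells, had 15443 and SPTBN4, a spectrin, had 2. All 3 weak genes had molecules from other starts within the gene, 48 read pairs for MAP4K1, 227 for SUPT5H and 147 for SPTBN4. SUPT5H was thus transcribed in these cells, but its most used start was 9426 bp from the annotated gene start.

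Of the head-to-head pairs known from the literature that met the rule, 5 are described. PPAT and PAICS, which encode enzymes of purine synthesis, stood at 42.3 and 63.5 CPM within 500 bp of their annotated starts. PAICS had 4456 read pairs in the gene against 646 near that start, with the most used start 519 bp away, just outside the window, so its level here is too low. SARS2, the mitochondrial seryl-tRNA synthetase, stood at 33.2, 23.8, 31.7 and 39.1 CPM, whereas MRPS12, of the mitochondrial ribosome, had 4, 5, 6 and 1 read pairs and was 21.6-fold lower in the mean. ATM, the DNA damage kinase, averaged 24.1 CPM and NPAT, the histone gene coactivator, 1.74 CPM. Of the molecules from the ATM start, 0.394% ended within 1 kb of its annotated gene end, with a median span of 12822 bp. PRKDC, the catalytic subunit of DNA-dependent protein kinase, and MCM4, of the replicative helicase, reached 6.82 and 3.18 CPM, and both had more molecules from starts inside the gene. None of the molecules counted at these annotated starts ended within 1 kb of the annotated end of its gene. On the MCM4 side all ended within 2 kb, with a median span of 332 bp. PDCD10 and SERPINI1 averaged 325 and 26.3 CPM.

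The starts in use lay farther apart than the annotated ones. The most used 5′ positions of the 2 sides were a median of 231 bp apart (quartiles 136 and 377 bp), against 117 bp between the annotated starts of the same 555 pairs. They were 1 to 100 bp apart in 72 pairs, over 100 and up to 300 bp in 283 and over 300 bp in 196. In 4 pairs the positions overlapped, so that the molecules of the 2 sides would share sequence at their 5′ ends. The annotated start of a gene is that of its outermost transcript. The difference between the levels of the sides did not follow this distance, with medians of 4.73-, 4.90- and 4.69-fold in the 3 distance classes and 8.95-fold in the 4 pairs with overlap.

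**Figure D2:**
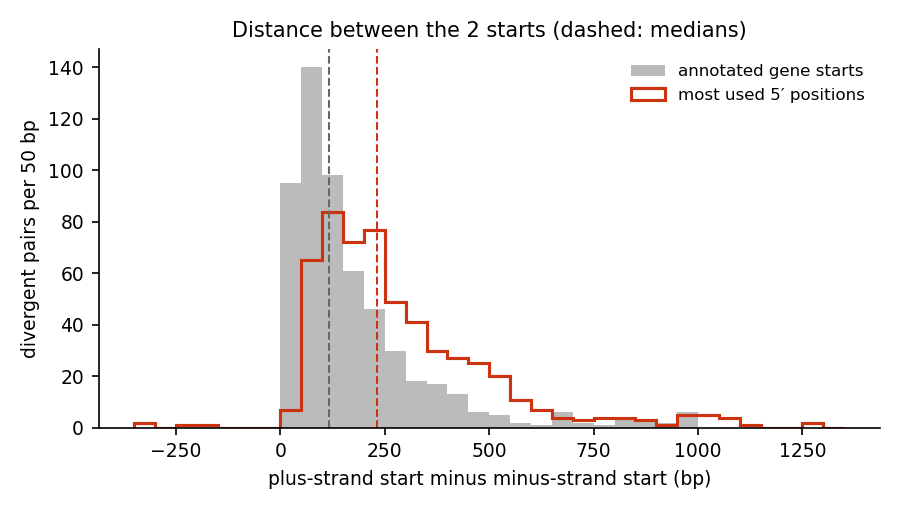
Number of divergent pairs (y axis, bins of 50 bp) by the distance from the minus-strand to the plus-strand start (x axis), for annotated starts (grey) and most used 5′ positions (red outline). The dashed medians stand at 117 bp and 231 bp, and 4 pairs fall below 0.

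Within a side, the starts were spread out. The most used position held a median of 19.6% of a member's read pairs, against 20.9% over all detected protein-coding genes, and the central 80% of starts spanned a median of 53 bp in both. Of 207 pairs with at least 200 read pairs on each side, 85 had both most used positions within 5 bp of each other in all 4 libraries. Within the windows, the most used positions of SERINC1 and PKIB were 0 and 4 bp inside their annotated starts. H2AC17 and H2BC17 both started at the annotated base, which held 73.9% and 79.4% of their read pairs. Few divergent molecules were short. Of 1062 detected sides, 77 had over 50% of their molecules ending within 2 kb of the start, and among genes over 5 kb long this held for 4.87% of 1151 members and 3.61% of all 7563. EFHB, at 4.53 CPM on the far side of the strong RAB5A promoter, was one of them with 77.3% of its read pairs.

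Imatinib changed genes at divergent promoters about as often as others. Of 1099 members that passed the count filter, 141 were called by edgeR's quasi-likelihood test at an adjusted p under 0.05, 84 higher and 57 lower. This is 12.8% of the members, against 12.7% of all 6824 protein-coding starts tested, of which 7.3% were higher and 5.38% lower. The other 611 members had too few read pairs to be tested. The count rests on single libraries, and was 12 without DMSO replicate 2, 67 without DMSO replicate 1 and 292 without imatinib replicate 2.

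The 2 sides of a promoter seldom responded together. Both sides were tested in 418 pairs, and both were called in 9 of them (2.15%), against 15 of 671 same-strand neighbours (2.24%) and 1 of 94 head-to-head pairs 1 to 10 kb apart (1.06%). In 7 pairs (1.67%) the sides changed the same way, against 1.64% of the same-strand neighbours. In 2 pairs (0.478%) they changed in opposite directions, against 0.596% of the same-strand neighbours and 1.06% of the other head-to-head pairs. A single side was called in 88 pairs (21.1%), against 22.4% of the same-strand neighbours and 24.5% of the other head-to-head pairs. Over the 418 pairs, Spearman's correlation between the log2 fold changes of the 2 sides was 0.061, against 0.069 in same-strand neighbours and -0.034 in the other head-to-head pairs. The signs agreed in 50.0% of the pairs. When one side was taken from the replicate 1 libraries and the other from the replicate 2 libraries, so that no library was shared, the correlation was 0.0653 or 0.0058, while a gene with itself across the replicates gave 0.485. Without DMSO replicate 2, no pair had both sides called, and without imatinib replicate 2 there were 23 with the same direction and 12 with opposite directions.

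**Figure D3:**
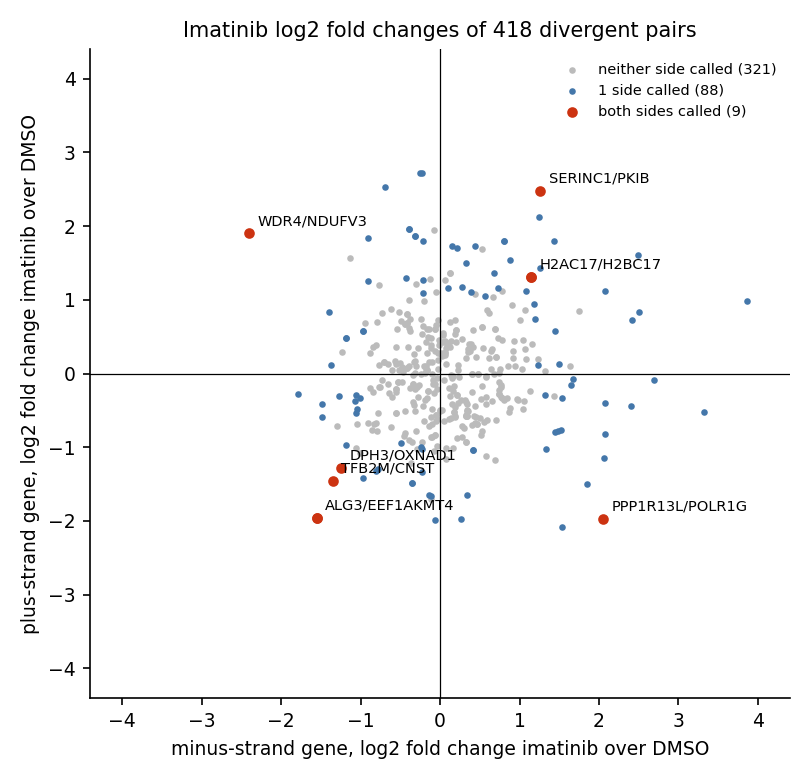
Log2 fold change after imatinib of the minus-strand gene (x axis) and of the plus-strand gene (y axis) in 418 divergent pairs, coloured by how many sides were called. The cloud shows no slope, 88 pairs have 1 called side, and the 9 with 2 include 2 in opposite corners, WDR4/NDUFV3 and PPP1R13L/POLR1G.

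Both sides rose at 2 loci. SERINC1, which carries serine into membranes, stood at 46.8, 70.1, 179 and 102 CPM. PKIB, an inhibitor of protein kinase A, stood at 4.68, 3.33, 28.9 and 14.1 CPM. In both genes each imatinib library lay above each DMSO library, with log2 fold changes of 1.26 (SE 0.35, adjusted p = 0.0414) and 2.48 (SE 0.49, adjusted p = 0.0109). Leaving out DMSO replicate 2 gave adjusted p = 0.126 and 0.110. SERINC1 also missed the threshold without DMSO replicate 1 (0.248) and without imatinib replicate 1 (0.0944), which held its highest value. PKIB had 124 read pairs at this start and 919 in the gene, where the most used start lay 10148 bp inside.

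The other locus was a histone promoter. H2AC17 stood at 58.3, 50.7, 119 and 121 CPM and H2BC17 at 89.8, 70.7, 199 and 198 CPM. Of the molecules from the H2AC17 start, 96.9% ended within 1 kb of its annotated gene end. H2BC17 had 1313 read pairs at its start but 6 that also ended in the gene or within 1 kb of it. Its values thus describe the use of the start, and hardly any of these molecules had the annotated H2BC17 end. The groups did not overlap and the replicates lay close together, with log2 fold changes of 1.14 (SE 0.28, adjusted p = 0.0261) and 1.31 (SE 0.28, adjusted p = 0.0144). Without DMSO replicate 2 the adjusted p was 0.295 and 0.216, and without DMSO replicate 1 it was 0.133 and 0.0502. The neighbouring H3C12 forms a pair with H2BC17 too, but its window covers the H2AC17 start and holds the same molecules, so H3C12/H2BC17 adds no evidence.

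Both sides fell at 3 loci. ALG3, a mannosyltransferase of N-glycosylation, stood at 186, 203, 69.6 and 62.7 CPM, and EEF1AKMT4, a lysine methyltransferase of the elongation factor eEF1A, at 59.6, 50.4, 10.8 and 18.2 CPM. Each fell below the range of DMSO, by 1.55 (SE 0.28, adjusted p = 0.0071) and 1.96 (SE 0.37, adjusted p = 0.0089) on the log2 scale, and EEF1AKMT4 shares its start with a read-through gene into ECE2 that makes up a second called pair. ALG3 missed the threshold without DMSO replicate 2 (adjusted p = 0.0793), and EEF1AKMT4 passed it whichever library was left out (adjusted p = 0.0445 without DMSO replicate 2). ALG3 had 1453 read pairs at this start and 6494 in the gene, with the most used start 586 bp away, outside the window.

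TFB2M, a transcription factor of mitochondrial DNA, stood at 346, 564, 179 and 178 CPM, and its partner CNST, a connexin recycling protein, at 28.5, 42.4, 11.5 and 14.8 CPM. The log2 fold changes were -1.35 (SE 0.30, adjusted p = 0.0166) and -1.45 (SE 0.38, adjusted p = 0.0317). They gave adjusted p = 0.240 and 0.306 without DMSO replicate 2, and CNST gave 0.0520 without imatinib replicate 1. DPH3, needed for diphthamide synthesis, stood at 293, 246, 120 and 107 CPM, and OXNAD1, an oxidoreductase domain protein, at 44.3, 56.3, 18.4 and 23.6 CPM. They changed by -1.24 (SE 0.27, adjusted p = 0.0157) and -1.28 (SE 0.34, adjusted p = 0.0339). Leaving out DMSO replicate 1 or 2 took both past the threshold (adjusted p = 0.0686 to 0.293), as did leaving out imatinib replicate 1 for OXNAD1 (0.0637). The TFB2M promoter was 13.0-fold and the DPH3 promoter 5.38-fold stronger than the facing side, and the differences between the log2 fold changes of the 2 sides were -0.11 (SE 0.43) and -0.04 (SE 0.43).

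In 2 pairs the sides moved apart. POLR1G, a subunit of RNA polymerase I, fell from 60.0 and 64.9 CPM to 13.0 and 19.5 CPM. The facing PPP1R13L, an inhibitor of p53, had 7 and 12 read pairs in DMSO and 47 and 13 after imatinib. Their log2 fold changes were -1.97 (SE 0.35, adjusted p = 0.0070) and 2.05 (SE 0.49, adjusted p = 0.0230). NDUFV3, of respiratory complex I, rose from 25.1 and 19.7 CPM to 107 and 58.6 CPM (log2 fold change 1.90, SE 0.37, adjusted p = 0.0102). WDR4, part of a tRNA methyltransferase, stood at 4.26, 8.04, 1.44 and 0.674 CPM, which rests on 44 read pairs in all (log2 fold change -2.40, SE 0.64, adjusted p = 0.0344). NDUFV3 had 513 read pairs at this start and 3043 in the gene, where the most used start lay 13666 bp away. Without DMSO replicate 2 the adjusted p was 0.165 for PPP1R13L, 0.0585 for POLR1G and 0.124 for NDUFV3, and WDR4 was no longer tested. PPP1R13L also missed the threshold without DMSO replicate 1 (0.0762) and imatinib replicate 1 (0.186), and WDR4 without imatinib replicate 1 (0.0584).

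**Figure D4:**
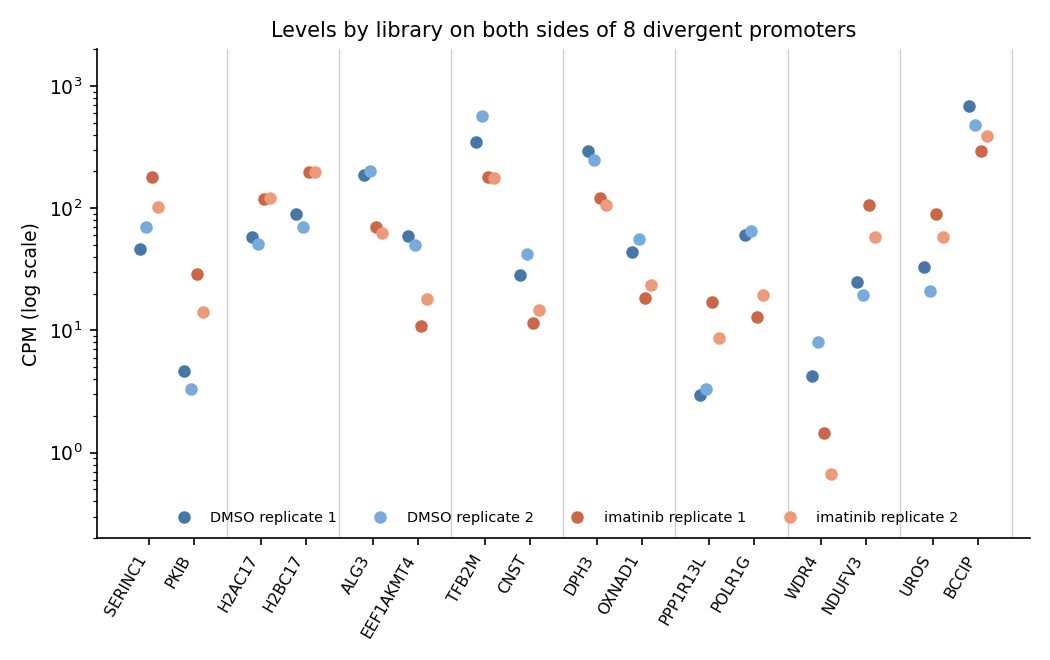
CPM on a log scale (y axis) in each of the 4 libraries for both genes of 8 divergent pairs (x axis, minus-strand gene first). In the first 5 pairs both genes move the same way, and in PPP1R13L/POLR1G and WDR4/NDUFV3 they move in opposite directions.

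Whether the 2 sides differ in their response was tested directly, with the side-by-treatment term of an edgeR fit over pairs with at least 10 read pairs on each side. It called 55 of 555 divergent pairs (9.91%), at 50 loci, against 12 of 137 head-to-head pairs 1 to 10 kb apart (8.76%) and 77 of 989 same-strand neighbours (7.79%). The smallest adjusted p was 0.0095, and 138 divergent pairs had an unadjusted p under 0.05. The weaker side was the one relatively raised by imatinib in 41 of the 55 and the stronger one in 14. This split was not counted over all 555 pairs or in the neighbouring pairs, so it cannot be read as a trait of divergent promoters. A weak side that reached 10 read pairs only through the imatinib libraries also entered the test. In 29 pairs only a raised side was called by the test on single genes, in 14 only a lowered side, in 2 both, and in 10 neither. The weaker side had a median of 99 read pairs, and under 50 in 24 of the 55 pairs. The count fell to 0 with a window of 200 bp (smallest adjusted p = 0.0523, 116 pairs with an unadjusted p under 0.05) and without DMSO replicate 2 (smallest adjusted p = 0.135, 63 pairs). It was 5 without DMSO replicate 1, 37 without imatinib replicate 1 and 130 without imatinib replicate 2.

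The largest differences came from weak sides. Besides both pairs above, they included THAP12/GVQW3, HSF2BP/RRP1B, NEMP1/NAB2, EFHB/RAB5A and PATL2/B2M, with differences of 3.72 to 4.09 in size (log2). B2M, the light chain of MHC class I, was steady at 364, 336, 348 and 376 CPM. PATL2, across a promoter 255-fold weaker on its side, had 0, 1, 11 and 2 read pairs (difference of the log2 fold changes, B2M minus PATL2, -3.72, SE 1.06, adjusted p = 0.0440). RAB5A, a small GTPase of early endosomes, stood at 290, 230, 162 and 200 CPM while EFHB had 1, 4, 31 and 8 read pairs (difference -3.80, SE 0.73, adjusted p = 0.0117). GVQW3, HSF2BP and NEMP1 had 12 to 16 read pairs each and were too low for the test on single genes. GVQW3 had 0, 1, 6 and 5, HSF2BP 1, 1, 11 and 2, and NEMP1 1, 3, 9 and 3. These sides, PATL2 and EFHB reached the required 10 read pairs only through the imatinib libraries. The filter thus favoured a rise in them, and the size of their differences cannot be separated from it. NAB2, a corepressor of EGR1, fell from 57.9 and 92.0 CPM to 23.1 and 11.5 CPM (log2 fold change -2.07, SE 0.41, adjusted p = 0.0105), and RRP1B, a nucleolar protein, from 75.3 and 87.3 to 44.4 and 24.9 CPM (-1.21, SE 0.34, adjusted p = 0.0449). Leaving out DMSO replicate 2 gave adjusted p = 0.0931 for NAB2 and 0.275 for RRP1B, and RRP1B also missed the threshold without DMSO replicate 1 (0.0896) or imatinib replicate 2 (0.0534). In PATL2, HSF2BP, NEMP1 and EFHB the highest count was in imatinib replicate 1, the library with the most A-rich 3′ ends. When only read pairs from 300 bp to 2 Mb apart without A-rich 3′ ends were counted, the differences of these 4 pairs were called (adjusted p = 0.0277, 0.0019, 0.0010 and 7.2e-05 in this order). That fit called 77 pairs, all 55 among them, with a smallest adjusted p of 2.7e-06 against 0.0095 in the main fit. It called more readily, so being called in both is not a stricter test. The part of A-rich 3′ ends in these differences was not tested.

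With at least 50 read pairs required on each side, 12 pairs were called at 11 loci, and these were chosen for description after their values had been seen. The adjusted p of these pairs was 0.0317 in that fit, or 0.0472 for C11orf98/CSKMT and its read-through copy, and the values below are those of the fit over 555 pairs. RHCE, SERPINI1, PPP1R13L and URGCP reached 50 read pairs only through the imatinib libraries. The filter of 50 read pairs thus favoured a rise in them, and the size of their differences cannot be separated from it. UROS, an enzyme of heme synthesis, stood at 32.8, 21.1, 90.2 and 58.6 CPM, and BCCIP, a BRCA2-interacting protein, at 688, 482, 293 and 387 CPM. UROS was higher in both imatinib libraries (log2 fold change 1.49, SE 0.36, adjusted p = 0.0246). BCCIP was lower in both but was not called (-0.79, SE 0.29, adjusted p = 0.0995). The difference was -2.26 (BCCIP minus UROS, SE 0.46, adjusted p = 0.0142). RHCE, which encodes a Rh blood group protein of red cells, had 5, 11, 160 and 28 read pairs, a log2 fold change of 3.86 (SE 0.60, adjusted p = 0.0046). Its partner MACO1 stood at 19.1, 30.5, 68.2 and 29.6 CPM and was not called (0.99, SE 0.43, adjusted p = 0.160). RHCE had 204 read pairs at this start and 1464 in the gene, where the most used start lay 9367 bp inside. Without DMSO replicate 2, adjusted p was 0.283 for UROS and 0.141 for the UROS/BCCIP difference, which gave 0.0874 without DMSO replicate 1, while RHCE still passed (0.0230). The summed erythroid markers given above were higher in both imatinib libraries too, and their part in these results was not tested.

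PNO1, a factor of small ribosomal subunit assembly, fell from 625 and 557 CPM to 120 and 182 CPM (log2 fold change -1.97, SE 0.29, adjusted p = 0.0036). Its partner DNAAF10, of dynein arm assembly, stood at 34.0, 32.7, 45.5 and 33.7 CPM (0.26, SE 0.32, adjusted p = 0.647). APTX, a DNA end-processing repair enzyme, stood at 28.1, 19.1, 58.8 and 76.1 CPM, and DNAJA1, a co-chaperone of HSP70, at 1216, 1130, 576 and 808 CPM. APTX rose by 1.52 (SE 0.34, adjusted p = 0.0178), DNAJA1 had a log2 fold change of -0.76 (SE 0.27, adjusted p = 0.0874), and the difference was -2.31 (DNAJA1 minus APTX, SE 0.42, adjusted p = 0.0117). SERPINI1, a serine protease inhibitor of neurons, stood at 9.36, 4.99, 59.9 and 31.0 CPM, a rise of 2.72 (SE 0.46, adjusted p = 0.0061), while PDCD10, a protein of cell death and vessel integrity, stood at 391, 317, 234 and 360 CPM. When DMSO replicate 2 was left out, adjusted p was 0.246 for APTX, 0.0676 for SERPINI1 and 0.135 for the APTX/DNAJA1 difference. APTX had 411 read pairs at this start and 2356 in the gene, where the most used start lay 23538 bp away. The remaining loci were TMEM59/TCEANC2, FAM227B/DTWD1, PPP1R13L/POLR1G, TAX1BP3/EMC6, URGCP/UBE2D4 and C11orf98/CSKMT.

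Calls of single pairs were fragile. Over the pairs named here and the histone pairs, 41 gene starts were called, and all kept their sign in every fit with 1 library left out in which they were tested. Genes that share reads are counted separately here. Of these, 4 were called without each of the 4 libraries in turn: EMG1, EEF1AKMT4, RHCE and PNO1. Without DMSO replicate 2 the called gene starts were only these 4, and no side-by-treatment call was left among 19 pairs. EMG1, of ribosome synthesis, stood at 651, 536, 199 and 226 CPM (log2 fold change -1.48, SE 0.26, adjusted p = 0.0071). Its partner PHB2, a prohibitin, stood at 551, 547, 476 and 383 CPM (-0.35, SE 0.26, adjusted p = 0.398), and the difference between them missed the threshold (-1.12, SE 0.41, adjusted p = 0.106).

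Of the gene lists, histone genes were most often found at divergent promoters, 27 of 63 genes named as H2A, H2B, H3 and H4 cluster members (42.9%), with both genes from the list in 14 pairs. Of 21 tested members 8 rose and none fell, where 7.3% of all starts tested were higher and 5.38% lower, with a median log2 fold change of 1.00 against 0.01 over all starts tested. The whole list had 32 tested genes, of which the same 8 were higher and none lower, with a median of 0.85. The 21 members are part of that list, so its median does not describe the other histone genes alone. H3C12 and H2AC17 hold the same molecules, so that 7 of the 8 are separate. H2BC15 had the smallest adjusted p (log2 fold change 1.43, SE 0.28, adjusted p = 0.0101), at 68.9, 59.0, 174 and 171 CPM. H2AC11 rose by 1.73 (SE 0.44, adjusted p = 0.0298) from 18.7 and 17.7 CPM to 35.4 and 87.6 CPM. The facing H2BC11 stayed at 446, 392, 405 and 524 CPM (0.15, SE 0.26, adjusted p = 0.763). None of the 8 was called without DMSO replicate 2 (adjusted p = 0.0860 to 0.405), and only H2BC15 without DMSO replicate 1 (0.0447, the others 0.0502 to 0.274). H2AC11 gave 0.0678 without imatinib replicate 2. Histone genes of one type are near-identical in sequence, so reads may be split between copies or lost, and only polyadenylated histone RNA is captured.

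Levels on the 2 sides of histone promoters were uneven too. H2BC12 averaged 738 CPM and the facing H2AC12 4.84 CPM, while H2BC4 and H2AC6 averaged 299 and 202 CPM. H2AC25 stood at 237, 173, 364 and 454 CPM, and the facing H2BC26 had no read pair in any library. The starts were sharp, with a median of 60.2% of the molecules of the 22 detected histone members at one position, at the annotated base in 19 of them. The 3′ ends were not at the annotated gene end for most: in 14 of the 22 fewer than 50% of the molecules ended within 1 kb of it. The median molecule from the H2BC17 start ended 64896 bp away in the genome, and those from H2BC12 and H2BC4 ended 8562 and 10045 bp away.

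**Figure D5:**
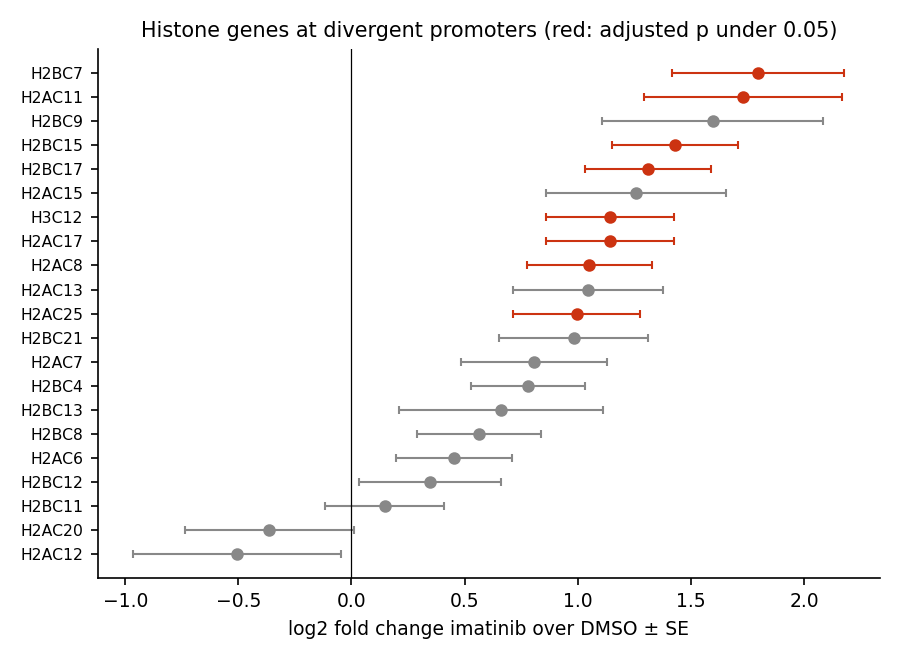
Log2 fold change after imatinib with its SE (x axis) for the 21 tested histone genes at divergent promoters (y axis), fitted on 2 libraries a condition. The 8 called genes (red) lie between 1.00 and 1.80, and 19 of the 21 lie above 0.

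The other gene groups, except aminoacyl-tRNA synthetases, were also found at divergent promoters more often than the 8.54% of all genes, by count. Members made up 1284 of the 8373 detected genes, a larger share than 8.54%. The lists were not matched for detection. Counts of members called are to be read against the 7.3% higher and 5.38% lower of all starts tested, with a median log2 fold change of 0.01. DNA repair genes were members in 28 of 81 cases (34.6%), with 25 detected. APEX1, the main abasic site nuclease, averaged 709 CPM and XRCC6, a Ku subunit, 408 CPM. Of 24 tested, LIG1, a DNA ligase, rose (1.31, SE 0.28, adjusted p = 0.0151) and none fell. DNA replication genes were members in 15 of 51 cases (29.4%). Of 9 tested, PCNA, the sliding clamp, rose (1.23, SE 0.31, adjusted p = 0.0275) from 65.5 and 46.0 CPM to 115 and 146 CPM. MCM2, of the replicative helicase, rose too (1.17, SE 0.29, adjusted p = 0.0260), and FEN1, a flap nuclease, stood at 189, 188, 189 and 186 CPM. Without DMSO replicate 1 or 2, adjusted p was 0.102 and 0.176 for LIG1, 0.0606 and 0.329 for PCNA, and 0.177 and 0.253 for MCM2.

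Genes of mitochondria followed the same order. Mitochondrial ribosomal proteins were members in 17 of 77 cases (22.1%) and all 17 were detected. Of 14 tested none rose and 2 fell, MRPL46 (-1.07, SE 0.29, adjusted p = 0.0358) and MRPL47 (-0.97, SE 0.25, adjusted p = 0.0317), against 7.3% higher and 5.38% lower of all starts. The median log2 fold change was -0.53 in these 14, -0.41 in the 65 tested genes of the whole list and 0.01 over all starts. Without DMSO replicate 1 or 2, adjusted p was 0.117 and 0.283 for MRPL46 and 0.167 and 0.194 for MRPL47, and MRPL46 gave 0.0639 without imatinib replicate 1. MRPL46 faces MRPS11, the only pair with both sides from this list. Respiratory chain genes were members in 18 of 76 cases (23.7%). UQCRH, of complex III, was the strongest of these at 4319, 3261, 3258 and 3550 CPM, and of 17 tested NDUFV3 rose and none fell.

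RNA polymerase and general transcription factor genes were members in 14 of 56 cases (25.0%). Of 12 tested, POLR1G, GTF2H1, a subunit of TFIIH (-1.29, SE 0.31, adjusted p = 0.0249), and POLR3K (-1.05, SE 0.31, adjusted p = 0.0471) fell, and none rose, where 5.38% of all starts were lower. In the whole list 8 of 44 tested genes fell and none rose. The median log2 fold change was -0.44 in the whole list and -0.14 in the 12 members. POLR3K gave adjusted p = 0.387, 0.0836 and 0.0566 without DMSO replicate 1, DMSO replicate 2 and imatinib replicate 1, POLR1G gave 0.0585 without DMSO replicate 2, and GTF2H1 gave 0.0841 and 0.136 without DMSO replicate 1 and 2. Chaperones and chaperonins were members in 9 of 41 cases (22.0%). CCT5 and CCT6A, of the cytosolic chaperonin, averaged 1616 and 1318 CPM, and TCP1, a subunit of the same ring, was the one of 8 tested that fell (-1.05, SE 0.26, adjusted p = 0.0249, and 0.137 and 0.170 without DMSO replicate 1 and 2). In the whole chaperone list 4 of 29 tested genes fell and none rose. The median log2 fold change was -0.69 in that list and -0.73 in the 8 members. Proteasome genes were members in 5 of 43 cases (11.6%) and aminoacyl-tRNA synthetases in 3 of 37 (8.11%), and none of their 8 tested members was called.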

How the data were processed

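TIF-Seq2 boundary tables of 2 DMSO and 2 imatinib libraries of K562 were used, grouped by the labels. Their counts, as deposited by the authors, are raw numbers of UMI de-duplicated read pairs per combination of 5′ and 3′ end, without normalization. The authors trimmed reads with cutadapt 1.16, aligned both ends separately to hg38 with STAR 2.5.3a and kept unique pairs on one chromosome. Read pairs starting within 500 bp of each protein-coding gene start of Gencode v44 were summed per library, whatever their 3′ end. Gencode v44 is newer than the annotation used by the authors.

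Gene starts were tested with edgeR 4.0.16 (quasi-likelihood, robust, TMM, filterByExpr) and Benjamini-Hochberg adjustment over 6824 starts. The side-by-treatment test used a library factor, side and side × treatment on 8 columns a pair, adjusted over 555 pairs. DESeq2 1.42.0 was an alternative. Both tests were tested on simulated data. Depth was 2263121 to 5135829 read pairs. Intervals and floors (a count of 0 allows 3 read pairs) cover counting error only. Replicates of a condition differed by a chi-square of 11.1 (DMSO) and 17.3 (imatinib) per degree of freedom, far above sampling noise, and their log2 CPM correlated by 0.978 and 0.955.

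Neighbouring genes were used in place of random pairs of similar level. They were chosen by distance alone and not matched for level. Differences from them therefore mix the pairing with the higher detection and level of the members. Pairs named are the 10 with the highest weaker side, up to 5 in each direction with both sides called, the 8 with the largest tested difference, those called in opposite directions, known pairs and the 3 most unequal ones, each locus once, preferring pairs without read-through or unnamed genes. The members and gene lists were chosen with earlier results of these data known. The long-read models and the 3′T-fill libraries were not used here. No sequence is shown for PRKDC/MCM4. Of the pairs this rule names, 2 are not reported here.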

Additional observations from a re-analysis of the deposited data

How the results depend on the processing

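The settings that moved a result were mainly the left-out library and the filters. Counts of members called were 12 to 292 with 1 library left out, 72 with a log2 fold change beyond 1.5 required, and 73 with the replicate number as a block. Pairs with both sides called the same way were 0 to 23 with 1 library left out, 14 without a filter on low counts, 2 with the block and 2 beyond a log2 fold change of 1.5, against 7. Pairs called in opposite directions were 0 to 12 with 1 library left out, 0 with DESeq2, 5 without the filter, 1 with the block and 1 when only read pairs from 300 bp to 2 Mb apart without A-rich 3′ ends were counted, against 2. Side-by-treatment calls were 0 to 130 with 1 library left out, 0 with a 200 bp window, 26 with DESeq2 and 12 with at least 50 read pairs on each side, against 55. With the read pairs so restricted, 77 side-by-treatment calls were made. The median log2 difference between sides was 2.32 with the read pairs so restricted and 1.87 with at least 50 read pairs on each side. The correlation of levels was 0.0505 with the 200 bp window, 0.0452 with restricted read pairs, and 0.0663 to 0.117 with 1 library left out. The correlation of log2 fold changes was 0.124 with at least 50 read pairs on each side and 0.0170 to 0.0915 with 1 library left out. The cause of these shifts was not tested.

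Libraries with the same replicate number deviated in opposite ways (correlation of deviations -0.280), and the labels tie them to no shared source. In an alternative chosen after seeing the data, crossed pairing as a block gave 312 members called and 79 side-by-treatment calls. Of 477 alternative values for 54 named genes, 59 lost a call, 13 gained one and none reversed. Low counts limit the weak sides, and a window of 500 bp around the outermost annotated start misses starts in use elsewhere: in 179 of 1284 detected members the most used start within the gene lay over 500 bp away.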
